A study of Mus musculus with 9 samples.

Results

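*Pou3f1*, *Pou3f2*, *Pou3f3* and *Pou3f4* are the 4 members of the POU3F (Brn and Oct6) family of transcription factors, taken here by their symbols from the 17487 genes that the 9 single-cell RNA-sequencing libraries list between them. All 4 were listed in every library, and membership of the family, not a threshold on any measured value, defined the set. The libraries came from microdissected neocortex of mouse embryos at E18.5, each prepared on the 10x Genomics Chromium 3′ platform. They were labelled wild type (WT1 to WT5) or *Tcf4* knockout (KO1, KO2, KO4 and KO5), and the embryos were littermates from crosses of *Tcf4* haploinsufficient mice of the Tcf4ex4WT/lacZ line. The KO animals carried a *lacZ*/neomycin cassette ahead of exon 4 on both copies of *Tcf4*, an insertion in every cell that removes the long TCF4 isoform but leaves the short TCF4A isoform. Genotypes were compared between WT2, WT3 and WT4 (n = 3) and KO4 and KO5 (n = 2), a choice made with earlier results of these libraries known. WT1, KO1 and KO2 held between 118 and 331 usable cells. *Tcf4* itself went against the label in 3 of the libraries left out of that comparison, at 4.65 in the library labelled WT1 and 16.7 in the library labelled KO1, and the library labelled WT5 had *Tcf4* at 7.20 unique molecular identifiers (UMIs) per 10000, below both KO4 (9.29) and KO5 (7.59) and well below the 12.2 to 12.6 of WT2 to WT4. The insertion lies upstream of the part of the transcript that 3′ counting reads, so a remaining *Tcf4* signal is no check of the long isoform.

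POU3F proteins bind DNA through a POU-specific domain and a homeodomain joined by a flexible linker, and several are known to pair with SOX factors on neural enhancers. *Pou3f2* (Brn2) and *Pou3f3* (Brn1) are known from mouse genetics to act together in late cortical progenitors and migrating neurons, where they are needed for the production and radial migration of upper layer projection neurons. *Pou3f1* (Oct6, Scip) is best known for promoting myelination by Schwann cells and is also found in subsets of cortical projection neurons. *Pou3f4* (Brn4) is known for its role in the inner ear and in the developing striatum, and it lies on the X chromosome.

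In the GENCODE vM21 annotation of GRCm38 each member had 1 transcript in 1 exon. *Pou3f1* (ENSMUSG00000090125) was at chr4:124656807-124660655 on the plus strand. *Pou3f2* (ENSMUSG00000095139) was at chr4:22482780-22488366 on the minus strand. *Pou3f3* (ENSMUSG00000045515) was at chr1:42695768-42703176 on the plus strand. *Pou3f4* (ENSMUSG00000056854) was at chrX:110814280-110817207 on the plus strand. *Pou3f1* overlapped the antisense gene *Gm2164* and *Pou3f3* the sense-strand gene *AC122898.1*, and neither overlapping gene was among the genes listed in the libraries. *Pantr1*, a noncoding RNA on the opposite strand, ended 926 bases from *Pou3f3*.

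The 4 genes are paralogs, so the closest stretch of their coding sequences is printed to show how far reads could tell them apart. It was the in-frame stretch of 75 bases with the highest identity to *Pou3f2* in all members. Letters that differ from *Pou3f2* are in capitals, the sequences are those of the GENCODE vM21 transcripts, and each reads 5′ to 3′ on the strand of the gene.
Pou3f2 (chr4:22487157-22487231, minus): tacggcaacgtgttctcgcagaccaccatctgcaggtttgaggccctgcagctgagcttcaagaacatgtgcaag
Pou3f1 (chr4:124658550-124658624, plus): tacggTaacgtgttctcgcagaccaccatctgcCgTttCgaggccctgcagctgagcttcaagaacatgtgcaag
Pou3f3 (chr1:42698187-42698261, plus): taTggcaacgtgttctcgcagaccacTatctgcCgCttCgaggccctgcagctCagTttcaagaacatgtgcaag
Pou3f4 (chrX:110815131-110815205, plus): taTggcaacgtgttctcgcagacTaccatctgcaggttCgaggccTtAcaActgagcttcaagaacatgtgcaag
Even here *Pou3f1* differed from *Pou3f2* at 4 of 75 bases, *Pou3f4* at 6 and *Pou3f3* at 7. The longest run shared exactly by any 2 whole transcripts was 38 bases, between *Pou3f1* and *Pou3f2*, and it lay in the coding part. In the last 500 bases, the end that 3′ tag counting reads, the longest shared run of any pair was 12 bases.

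The stretches just before the starts of *Pou3f2* and *Pou3f3* are printed because these 2 genes had the most similar levels across cell classes in WT. Each is the 250 bases upstream of the RefSeq start on GRCm38.p6, 5′ to 3′ on the strand of the gene.
Pou3f2 (chr4:22488367-22488616, minus): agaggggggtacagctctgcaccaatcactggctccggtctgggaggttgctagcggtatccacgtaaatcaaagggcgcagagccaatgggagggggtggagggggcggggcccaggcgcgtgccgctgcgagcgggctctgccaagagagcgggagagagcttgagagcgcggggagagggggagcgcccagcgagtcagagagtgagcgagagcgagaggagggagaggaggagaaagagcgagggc
Pou3f3 (chr1:42695518-42695767, plus): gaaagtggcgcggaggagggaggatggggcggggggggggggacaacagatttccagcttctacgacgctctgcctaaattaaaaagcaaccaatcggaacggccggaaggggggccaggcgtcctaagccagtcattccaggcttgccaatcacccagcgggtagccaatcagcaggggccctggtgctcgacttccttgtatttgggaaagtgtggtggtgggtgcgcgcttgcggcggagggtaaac
Both were rich in G and C, at 66.8% for *Pou3f2* and 60.8% for *Pou3f3*. Neither held the E-box letters CANNTG bound by TCF4 and other bHLH factors, which read the same on both strands, and neither held the POU octamer ATGCAAAT on either strand. Among the 32851 windows of this length in the RefSeq promoter table, 66.2% held CANNTG and 1.6% held ATGCAAAT. No capitals are used because no match was found in these windows, and more distant elements were not examined.

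Cells were sorted into 12 classes by fixed marker lists that contain no *Pou3f* gene, after each cell had been thinned at random to 1800 UMIs to limit the part of depth in the choice of class. Each name below stands for cells that resembled that type by its markers (upper layer-like and so on). A class needed at least 2 markers and a clear lead over the next list, and cells that matched 2 lists were left out. Of the 998 upper layer cells in the 5 compared libraries 374 lay within 1 bit of the limit, and 709 cells lay as close on the other side. The upper layer class (*Cux1*, *Cux2*, *Rorb*, *Mef2c* and others) held 106 cells in WT2, 199 in WT3, 357 in WT4, 221 in KO4 and 115 in KO5. Its summed markers stood 4.91, 4.16 and 5.37 times above the mean of the other classes in WT2, WT3 and WT4 but only 1.95 and 1.80 times above it in KO4 and KO5, and 1.72 times in the library labelled WT5. Levels are given as the mean over the cells of a class of UMIs per 10000, one value for each library, which stands for 1 embryo. The value of 1 class is a property of the cells the markers selected, and p-values measure the spread between these few libraries.

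The compared libraries differed in more than genotype. The median cell held 2478 to 4359 UMIs in WT2 to WT4 and 2217 to 2290 in KO4 and KO5. Of 1800 UMIs, the median cell had 5 to 7 from *Actb* in WT2 to WT4 but 30 or 31 in KO4 and KO5, with 35 in WT5. Cells with over 1% haemoglobin UMIs, which were removed, made up at most 1.34% of WT2 to WT4, 13.9% of KO4 and 40.4% of KO5. KO5 held 545 UMIs from 4 Y-linked genes and none of *Xist*, whereas the other 4 held *Xist* and no Y-linked UMI. Depth, *Actb* and haemoglobin went with genotype in the compared libraries, whereas sex set KO5 apart from the other 4, and their part in the results below was not tested. Between 2 and 46 cell barcodes were shared by any 2 of them, at most 1.01% of the smaller library.

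In WT cortex, *Pou3f2* was highest in newborn neurons and lowest in endothelial cells. In the newborn neuron class (*Unc5d*, *Sema3c*, *Neurod1* and others), its level was 3.66 in WT2, 7.36 in WT3 and 4.54 in WT4. In the intermediate progenitor class it was 3.33, 4.88 and 3.37, and in the upper layer class 3.04, 5.18 and 3.18. WT3 gave the highest value in each of these classes and in 7 of the 11 classes with at least 10 cells in every WT library. Cycling progenitors (mean 2.92 ± 0.857, SD, n = 3) and deep layer neurons (2.60 ± 1.16) came next. Radial glia or astrocytes followed at 1.91 ± 0.218, then striatal cells at 1.67 ± 0.974, the oligodendrocyte lineage at 1.55 ± 0.552 and interneurons at 1.54 ± 0.337. Cajal-Retzius cells had 0.456, 0.150 and 0.274, and endothelial cells 0.188, 0 and 0.381. The 0 in WT3 was measured over 12 endothelial cells and allows a level of up to 0.509.

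These levels were compared by limma on log2(level + 1) with the library as a block, over 12107 genes with Benjamini-Hochberg adjustment, so that differences of low genes are understated. *Pou3f2* rose in the upper layer class against 6 of the 10 other classes. It was higher than in endothelial cells by 2.0 (SE 0.22, adjusted p = 1.74e-09, limma), a direction that 11.5% of all genes passed. It was higher than in Cajal-Retzius cells by 1.87 (adjusted p = 3.52e-08; 3.86% of genes higher), and than in the oligodendrocyte lineage by 0.91 (adjusted p = 0.00308; 5.45%). It was also higher than in interneurons by 0.90 (adjusted p = 0.0149; 0.942%), in striatal cells by 0.88 (adjusted p = 0.028; 0.529%) and in radial glia or astrocytes by 0.69 (adjusted p = 0.0272; 4.24%). With limma the upper layer level did not pass the test against newborn neurons (-0.35, SE 0.22), intermediate progenitors (-0.03), deep layer neurons (0.43) or cycling progenitors (0.28). With edgeR it was lower than in newborn neurons (-0.49, adjusted p = 4.43e-04; 4.49% of genes lower) and higher than in deep layer neurons (0.72, adjusted p = 2.11e-05) and cycling progenitors (0.37, adjusted p = 0.00872; 15.7% of genes higher), and it did not pass against intermediate progenitors (0.00118). In the order of levels, the only neighbours past the threshold were interneurons and Cajal-Retzius cells (0.97, adjusted p = 0.00153). The call rate was sensitive to depth: on thinned cells 2 of these 6 contrasts passed, and without WT4 also 2.

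*Pou3f3* had nearly the same order as *Pou3f2* with less spread between libraries. Its level in newborn neurons was 3.37 in WT2, 3.80 in WT3 and 3.83 in WT4. In the upper layer class it was 2.36, 3.24 and 2.93, and in intermediate progenitors 2.81, 2.90 and 2.29. Striatal cells (2.45 ± 0.855) and deep layer neurons (2.42 ± 0.668) were close to these, cycling progenitors (2.0 ± 0.281) and radial glia or astrocytes (1.96 ± 0.192) lay somewhat lower, and interneurons had 1.65, 1.61 and 1.51. The oligodendrocyte lineage had 1.28 ± 0.386, and only here did a neighbour in the order pass the test, against Cajal-Retzius cells (0.56, adjusted p = 0.0135, limma). Cajal-Retzius cells had 0.774, 0.253 and 0.632, and endothelial cells 0.256, 0.0874 and 0.634. With limma, 3 classes were lower than the upper layer class for *Pou3f3*: endothelial cells by 1.55 (SE 0.17, adjusted p = 4.23e-10), Cajal-Retzius cells by 1.32 (adjusted p = 1.02e-07) and the oligodendrocyte lineage by 0.76 (adjusted p = 0.00112). The same 3 passed on thinned cells and without WT4, and 2 of them without WT3. With edgeR the upper layer class was higher than 8 of the 10 other classes and lower than 1. More genes passed with edgeR in general: 15.7% were higher in the upper layer class than in cycling progenitors, against 3.91% with limma. With edgeR 10.2% of genes were higher than in intermediate progenitors, 3.08% than in striatal cells and 1.26% than in deep layer neurons. Against newborn neurons 4.49% were lower. The edgeR shares for the remaining classes are not given here, so the count is not read as particular to *Pou3f3*. By limma again, the newborn neuron class was set against 2 others. Newborn neurons exceeded radial glia or astrocytes by 0.65 (adjusted p = 0.00589) and cycling progenitors by 0.64 (adjusted p = 0.0105).

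The mean of *Pou3f1* was highest in the upper layer and newborn neuron classes. The upper layer class had 0.809 in WT2, 0.925 in WT3 and 1.52 in WT4, and the newborn neuron class 1.01, 0.895 and 1.15. Striatal cells had 1.07, 0.782 and 0.648, deep layer neurons 0.832, 0.399 and 0.774, and intermediate progenitors 0.413, 0.615 and 0.759. With limma no pair of these 5 classes passed the test. With edgeR on summed UMIs, *Pou3f1* was higher in the upper layer class than in striatal cells (1.16, adjusted p = 3.29e-06; 3.08% of genes higher), deep layer neurons (0.97, adjusted p = 1.72e-05; 1.26%) and intermediate progenitors (0.94, adjusted p = 8.67e-06; 10.2%), but not past the threshold against newborn neurons (0.28, adjusted p = 0.314). In radial glia or astrocytes the level was 0.294, 0.259 and 0.346, below every upper layer value, and the difference was 0.67 (SE 0.13, adjusted p = 0.000139, limma; 4.24% of genes higher). The upper layer class was also higher than cycling progenitors by 0.59 (adjusted p = 9.00e-04; 3.91%), interneurons by 0.52 (adjusted p = 0.0157), the oligodendrocyte lineage by 0.71 (adjusted p = 6.68e-05), Cajal-Retzius cells by 0.95 (adjusted p = 2.83e-07) and endothelial cells by 0.96 (adjusted p = 5.12e-08). Of these 6 contrasts, 4 passed on thinned cells and 3 without WT4.

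*Pou3f4* had a different distribution, highest outside the projection neurons. Interneurons (*Dlx1*, *Dlx2*, *Gad1*, *Lhx6* and others) had 0.401 in WT2, 1.2 in WT3 and 1.04 in WT4, and cycling progenitors 0.554, 0.752 and 1.23. The oligodendrocyte lineage had 0.890, 0.426 and 0.390. The upper layer class had 0.133, 0.180 and 0.169, which put it ninth among the 11 classes. It was lower than cycling progenitors by 0.65 (SE 0.13, adjusted p = 4.55e-04; 5.45% of genes were lower), lower than interneurons by 0.67 (adjusted p = 0.00149; 1.18%) and lower than the oligodendrocyte lineage by 0.42 (adjusted p = 0.0302; 6.53%). No neighbours in the order differed past the threshold. No *Pou3f4* UMI was found in the 26, 12 and 42 endothelial cells of WT2, WT3 and WT4, which allows levels of up to 0.25, 0.509 and 0.123. Without WT4, none of the 3 upper layer contrasts passed with limma. With edgeR the upper layer class was lower than 6 of the 10 other classes and higher than 1. The edgeR shares of all genes for these classes are not given here.

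**Figure D1:**
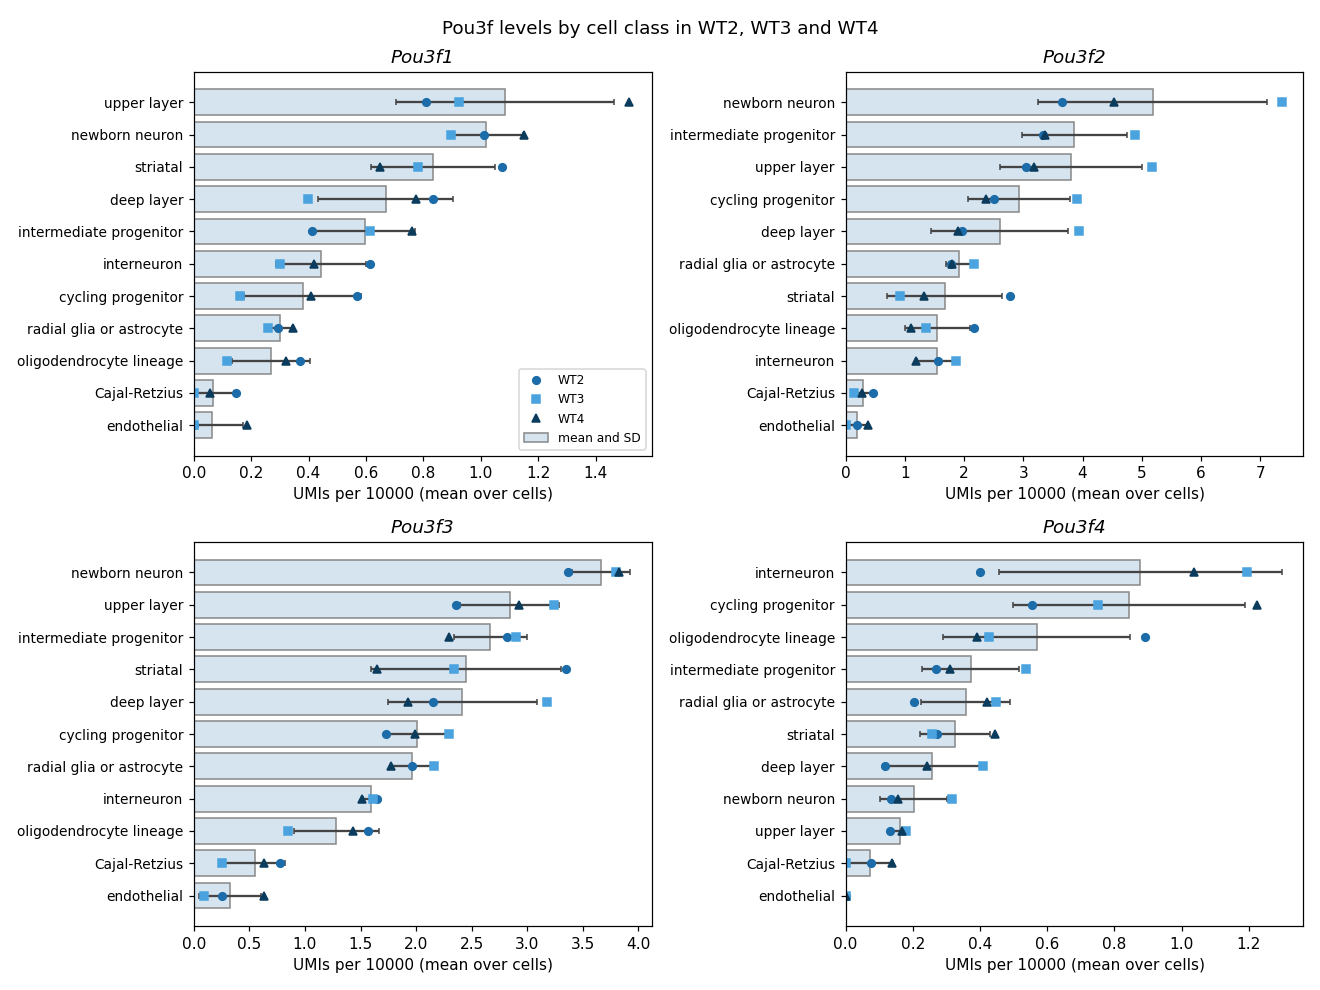
Levels of the 4 *Pou3f* genes in WT2, WT3 and WT4, one panel a gene. The horizontal axis is the mean over cells of UMIs per 10000, bars are the mean of the 3 libraries with SD, points are the libraries, and classes are ordered by the mean. *Pou3f2* and *Pou3f3* lead in newborn neurons and are lowest in endothelial cells, whereas *Pou3f4* leads in interneurons (mean 0.878) and cycling progenitors (0.844).

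Over the 33 combinations of 11 classes and 3 WT libraries, the levels of *Pou3f2* and *Pou3f3* had a Pearson r of 0.925 on the log2 scale. *Pou3f1* had an r of 0.821 with *Pou3f3* and of 0.698 with *Pou3f2*, and *Pou3f4* had 0.314 with *Pou3f2*, 0.259 with *Pou3f3* and -0.00398 with *Pou3f1*. The points share libraries, depth and class definitions, so these values are descriptions and were not tested. Of 3167 genes that were neither class markers nor members, those most like *Pou3f2* were *Trim2* (0.854), *Pantr1* (0.852), *Kif21a* (0.827), *Mllt3* (0.824) and *Igfbpl1* (0.818). For *Pou3f3* they included *Igfbpl1* (0.894), *Sox11* (0.889), *Celf2* (0.884) and *Neurod6* (0.859). *Sox11* and *Neurod6* encode transcription factors of differentiating cortical neurons. For *Pou3f1* they were *Ttc28* (0.888), *Celf2* (0.883), *Neurod2* (0.882), *Enc1* (0.855) and *Cd24a* (0.854). For *Pou3f4* they were *Cdca7* (0.836), *Rfc3* (0.789), *Nmral1* (0.764), *Nasp* (0.764) and *Mpped2* (0.754), of which *Rfc3* and *Nasp* serve DNA replication and histone supply. *Tcf4* itself had an r of 0.817 with *Pou3f3*, 0.814 with *Pou3f2*, 0.705 with *Pou3f1* and 0.207 with *Pou3f4*.

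At 1800 UMIs a cell, 61.3%, 76.4% and 70.0% of upper layer cells in WT2, WT3 and WT4 had a UMI of at least 1 member, and 22.6%, 35.2% and 25.8% had UMIs of at least 2. *Pou3f2* and *Pou3f3* were found together in 17.9%, 25.6% and 15.1% of these cells. The product of their separate shares was 14.5%, 23.3% and 14.0%, so the share with both lay above the product in all 3 libraries, by a difference that was not tested. It also lay above it in KO4 (11.3% against 9.89%) and KO5 (15.7% against 15.0%). *Pou3f2* and *Tcf4* were found together in 34.9%, 45.7% and 34.5% of the cells, against products of 35.2%, 47.4% and 33.8%. Absence of a UMI at this depth does not mean absence of the transcript.

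In KO4 and KO5 the classes differed less in *Pou3f2* and *Pou3f3* than in WT2 to WT4. *Pou3f2* ran from 1.28 to 3.44 over the 12 classes of KO4 and from 0.917 to 2.68 over the 11 classes of KO5, where WT2 ran from 0.188 to 3.66, WT3 from 0 to 7.36 and WT4 from 0.274 to 4.54. In the endothelial class it was 1.92 in KO4 and 2.54 in KO5, against 0.188, 0 and 0.381 in WT2, WT3 and WT4. For *Pou3f3* the endothelial level was 1.59 and 2.38, against 0.256, 0.0874 and 0.634. The microglial class had 2.21 and 2.60 of *Pou3f2* in KO4 and KO5, and 0.913 in the 58 microglia of WT4, the one WT library of the comparison with at least 10. The endothelial class was gated on its markers, so a high marker sum follows from the gate and is no check of its name. That sum was 32.7 in KO4 and 21.9 in KO5, against 85.0, 103 and 94.0 in WT2, WT3 and WT4. Its ratio to the mean of the other classes was 80.1 and 25, against 814, 558 and 487. *Gng11*, *Col4a2* and *Itm2a*, which are not among the markers, were among the leading genes of the class in both genotypes. The library labelled WT5 looked like the KO libraries, with *Pou3f2* at 1.32 in endothelial cells and from 0.649 to 2.37 over its classes.

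The spread over classes puts a number on this. The SD over classes of log2(level + 1) of *Pou3f2* was 0.628 in WT2, 1.01 in WT3 and 0.651 in WT4, but 0.243 in KO4 and 0.271 in KO5. For *Pou3f3* the highest KO value was 0.292 and the lowest WT value 0.468, for *Pou3f1* 0.205 and 0.336, and for *Pou3f4* 0.182 and 0.265. The 2 groups did not overlap for any member, and each gave p = 0.1 in a two-sided exact permutation test, the smallest that 3 libraries against 2 can give. WT5 had 0.294 for *Pou3f2* and 0.14 for *Pou3f3*. This measure was chosen after the levels had been seen and was computed for the members only. No share of all genes therefore stands beside it, and it is not read as particular to the family. The ratio of the summed markers of a class to the mean of the other classes was given above for upper layer and endothelial cells. In every class but newborn neurons, this ratio was lower in KO4 and KO5 than in each of WT2, WT3 and WT4. Some of these classes held fewer than 10 cells in a library. In newborn neurons the ratio overlapped, at 5.85 and 6.41 in KO4 and KO5 against 7.61, 7.67 and 6.21. The newborn marker sums themselves were 11.5 and 10.8 against 12.7, 13.8 and 12.8, without overlap.

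The difference was also tested directly, with limma and the library as a block, as the KO effect in endothelial cells minus the KO effect in upper layer cells. It was 1.84 for *Pou3f2* (log2, SE 0.27, adjusted p = 1.03e-05), 1.27 for *Pou3f3* (SE 0.25, adjusted p = 7.98e-04) and 0.77 for *Pou3f1* (SE 0.23, adjusted p = 0.0265), and 0.18 for *Pou3f4* (SE 0.13, adjusted p = 0.461). Of 10419 genes, 7.62% passed, so the members that passed are among many. This contrast was added after the levels had been seen. *Pou3f2* passed without any 1 library, whereas *Pou3f3* lost the call without KO5 (adjusted p = 0.17) and *Pou3f1* without WT4, KO4 or KO5 (adjusted p = 0.0819, 0.0874 and 0.539).

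**Figure D2:**
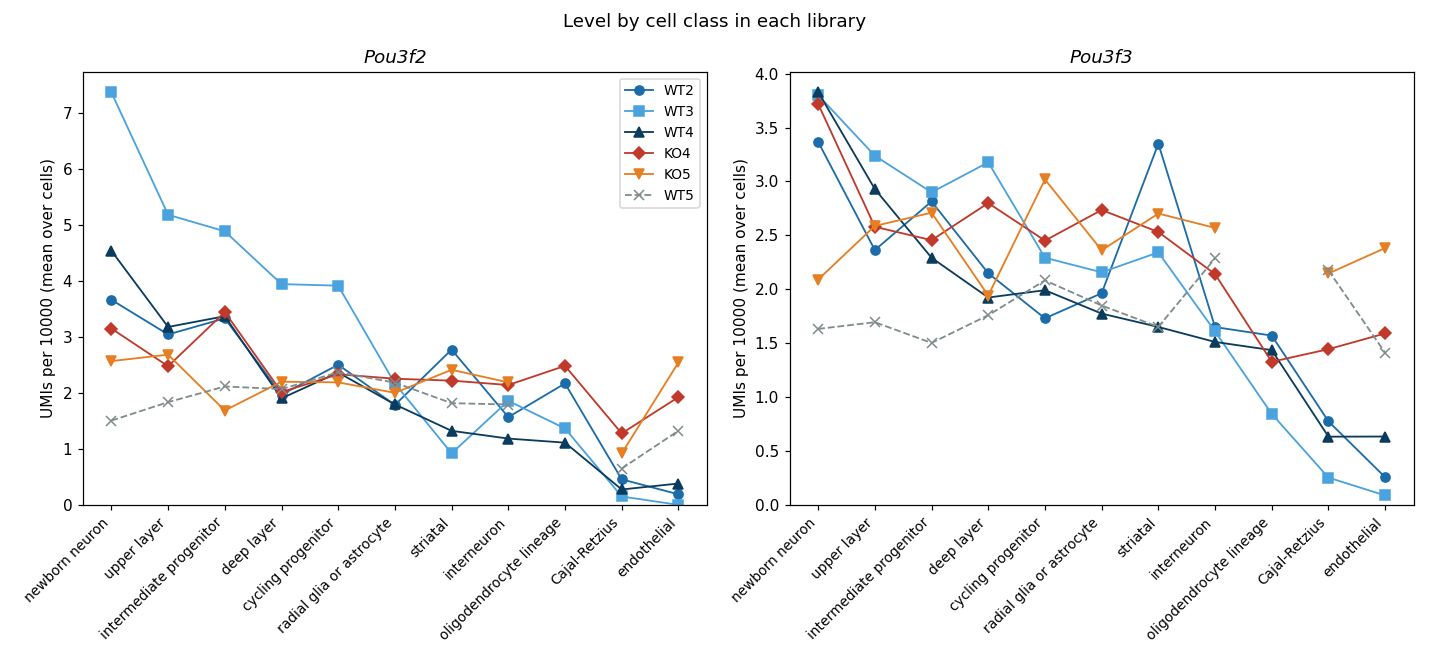
Level of *Pou3f2* (left) and *Pou3f3* (right) in each cell class, in UMIs per 10000, with one line a library. Classes with fewer than 10 cells in a library are not drawn. The WT2, WT3 and WT4 lines fall from newborn neurons to endothelial cells, where *Pou3f2* is at most 0.381, while KO4, KO5 and the library labelled WT5 stay between 1.32 and 2.54 there.

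In upper layer cells the KO effect on the members did not pass the test. The *Pou3f2* level was 3.04 in WT2, 5.18 in WT3, 3.18 in WT4, 2.47 in KO4 and 2.68 in KO5, so the groups did not overlap, which held for 34.2% of the 8418 genes tested (22.9% lower in KO). The difference of KO from WT was -0.40 (log2, SE 0.16, adjusted p = 0.201, limma), and without WT3 it was -0.20. *Pou3f3* was 2.36, 3.24 and 2.93 in WT and 2.58 and 2.59 in KO, with both KO values inside the WT range (-0.09, SE 0.14, adjusted p = 0.789). *Pou3f1* was 0.809, 0.925 and 1.52 in WT and 1.17 and 0.714 in KO (-0.10, SE 0.15, adjusted p = 0.795). *Pou3f4* was 0.133, 0.180 and 0.169 in WT and 0.144 and 0.223 in KO (0.03, SE 0.07, adjusted p = 0.883). Of all genes tested in this class 2.96% passed with limma, 2.16% with edgeR and 0.974% with DESeq2, and of the members 0 of 4 with limma, edgeR or DESeq2. The KO effect in deep layer or newborn neurons was not shown to differ from that in upper layer cells for any member (adjusted p of 0.553 or more, limma), where 0.258% and 0.327% of genes passed.

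The share of upper layer cells with a UMI, at 1800 UMIs a cell, was set beside these levels. With 3 libraries against 2 the exact permutation test cannot give a p under 0.1, so no member could pass. *Pou3f2* was found in 41.5% of cells in WT2, 53.3% in WT3, 37.2% in WT4, 31.2% in KO4 and 38.3% in KO5 (exact permutation test, two-sided, p = 0.3, Benjamini-Hochberg over 4 genes 0.6). *Pou3f3* was found in 34.9%, 43.7% and 37.5% of WT cells and in 31.7% and 39.1% of KO cells (exact p = 0.5), *Pou3f1* in 9.43%, 16.6% and 23.2% against 19.0% and 13% (exact p = 0.9), and *Pou3f4* in a mean of 2.29% against 3.76% (exact p = 0.2). Without thinning the mean share of *Pou3f2* was 63.7% in WT and 43.6% in KO, at unequal depths. The endothelial class was set beside the upper layer class. There, *Pou3f2* was found in 3.85%, 0% and 2.38% of cells in WT2, WT3 and WT4, where 0 of 12 cells allows a share of up to 26.5% by the exact interval, and in 28.1% (exact binomial 95% interval 20.3% to 37.0%) and 38.1% (23.6% to 54.4%) in KO4 and KO5. In KO4 and KO5 the upper layer share of *Pou3f2* was within a few percentage points of the endothelial share, so it is not read here as particular to upper layer cells. The cause of the endothelial share was not tested. For *Pou3f3* the 2 shares were as close, with 28.9% and 35.7% in endothelial cells of KO4 and KO5. Intervals and limits cover counting error only.

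**Figure D3:**
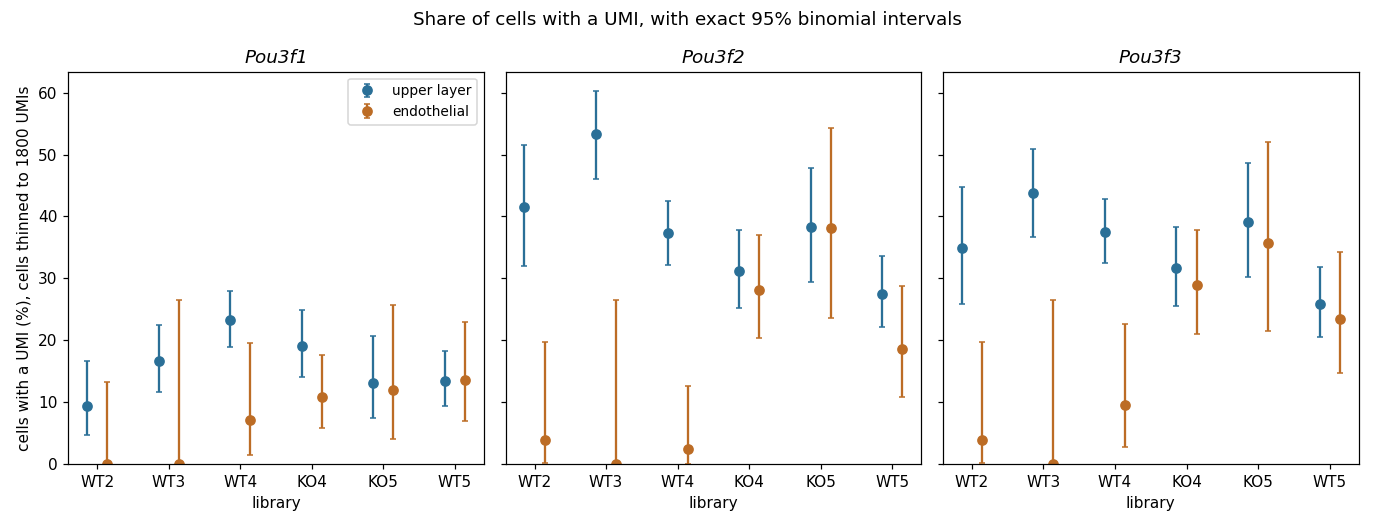
Share of cells with a UMI of *Pou3f1*, *Pou3f2* and *Pou3f3* in the upper layer and endothelial classes of 6 libraries, with every cell thinned to 1800 UMIs. Bars are exact 95% binomial intervals. In WT2, WT3 and WT4 the upper layer share of *Pou3f2* (37.2% to 53.3%) is far above the endothelial share (at most 3.85%), while in KO4, KO5 and WT5 the intervals overlap.

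Across all 8 classes tested between genotypes, 2 of the 32 tests of a member passed with limma, 3 with edgeR and 1 with DESeq2. *Pou3f1* was higher in KO radial glia or astrocytes, at 0.645 and 0.915 against 0.294, 0.259 and 0.346 (0.45, SE 0.13, adjusted p = 0.0155), a class in which 9.83% of 9247 genes passed (3.43% higher in KO; 6.36% in all with edgeR). Over all kept cells *Pou3f1* was 0.795 to 0.835 in KO4 and KO5 and 0.645 to 0.846 in WT2 to WT4. In KO radial glia or astrocytes *Neurod2*, *Neurod6* and *Sox11*, which mark neurons, were higher too, and *Hes5* and *Sox2*, which mark radial glia, were lower. *Pou3f1* lost the call with DESeq2 (adjusted p = 0.125), on thinned cells (0.272), below 4000 UMIs (0.0646), without WT3 (0.0706) and without KO5 (0.295). With all 9 libraries entered as labelled where they held 10 cells of the class, the difference was 0.11 (adjusted p = 0.999).

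*Pou3f4* was lower in KO cycling progenitors, at 0.0976 and 0.482 against 0.554, 0.752 and 1.23 (-0.52, SE 0.15, adjusted p = 0.0255), a class in which 11.5% of 8804 genes passed (7.27% lower in KO; 7.22% in all with edgeR). In the same class *Neurod2* (1.57 in WT, 4.23 in KO, adjusted p = 1.32e-04) and *Neurod6* (3.31 and 6.97, adjusted p = 0.00152) were higher in KO and *Sox2* was lower (1.74 and 0.512, adjusted p = 2.01e-04). The summed cycling markers were 45.1 to 48.6 in WT2 to WT4, 17.2 in KO4 and 14.6 in KO5, and the part of these shifts was not tested. The *Pou3f4* difference rested on 4 and 7 UMIs in KO4 and KO5 and on 15, 34 and 153 in WT2, WT3 and WT4. It lost the call with DESeq2 (adjusted p = 0.0978), in cells gated on all UMIs (0.193) and without WT3 (0.068), WT4 (0.0893) or KO4 (0.274), and with all libraries as labelled (-0.27, adjusted p = 0.832). In interneurons *Pou3f4* was 0.239 and 0.159 in KO against 0.401, 1.2 and 1.04 in WT (-0.62, SE 0.16, adjusted p = 0.0986; 1.01% of genes passed with limma, 1.58% with edgeR and 1.0% with DESeq2), and it passed with edgeR (-2.19, adjusted p = 0.00876), with DESeq2 (adjusted p = 0.0119), in cells gated on all UMIs (0.00806) and without WT2 (0.00215). *Neurod2* (1.69 and 3.84, adjusted p = 0.0416) and *Neurod6* (3.42 and 7.73, adjusted p = 0.0279) were higher in KO interneurons and *Sox2* was lower (1.29 and 0.431, adjusted p = 0.0202). The summed interneuron markers were 20.6 to 25 in WT2 to WT4, 12.2 in KO4 and 11.2 in KO5, and their part was not tested either.

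In newborn neurons, where *Pou3f2* was highest in WT, it was 3.15 and 2.57 in KO4 and KO5 against 3.66, 7.36 and 4.54 (-0.64, SE 0.21, adjusted p = 0.109; 1.68% of 8792 genes passed). It passed when cells were gated on all UMIs (adjusted p = 0.0337), with haemoglobin-rich cells kept (0.033) and without KO4 (0.0379). *Pou3f3* was 3.72 and 2.09 in KO against 3.37, 3.80 and 3.83 (-0.29, SE 0.20, adjusted p = 0.452). In intermediate progenitors *Pou3f2* was 3.44 and 1.68 against 3.33, 4.88 and 3.37 (-0.48, adjusted p = 0.118; 4.27% of genes passed), with KO4 inside the WT range, and it passed only without KO4 (adjusted p = 0.0163). In interneurons, a class with little *Pou3f2* in WT, the level was 2.14 and 2.19 in KO against 1.57, 1.86 and 1.18 (0.33, SE 0.16, adjusted p = 0.379). Over all kept cells as one profile, *Pou3f2* was 2.44 and 2.31 in KO and 2.54, 4.57 and 2.45 in WT (-0.27, SE 0.20, adjusted p = 0.381), and *Pou3f3* was 2.54 and 2.42 against 2.20, 2.97 and 2.28 (0.01, adjusted p = 0.978). No member passed in deep layer neurons or striatal cells, where 0.288% and 0.623% of genes did. None of the 4 members passed over all kept cells, where 1.15% of 8554 genes did. There *Pou3f4* was 0.131 to 0.189 in KO4 and KO5 and 0.251 to 0.416 in WT2 to WT4. Both KO libraries lay below every WT for *Pou3f4* in 5 of the 8 classes tested. In radial glia or astrocytes they had 0.105 to 0.159 against 0.205 to 0.448, from 10 KO UMIs. The share of all genes without overlap is given only for upper layer cells (22.9% lower in KO), so this count is not read as particular to *Pou3f4*.

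**Figure D4:**
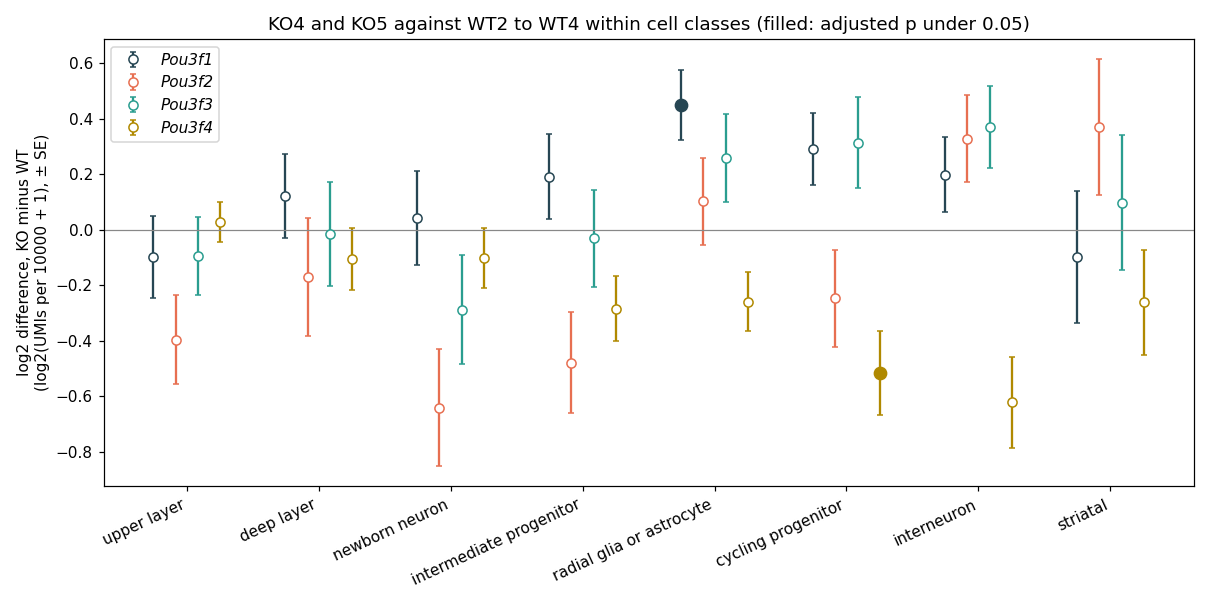
KO minus WT difference of each member in the 8 classes tested, on the log2(UMIs per 10000 + 1) scale with SE. Filled points passed at an adjusted p under 0.05 over all genes (limma, 3 WT and 2 KO libraries). The points that passed are *Pou3f1* in radial glia or astrocytes (0.45) and *Pou3f4* in cycling progenitors (-0.52).

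The genes around this family were taken from lists drawn up by function. Of 11 other POU genes, 7 were listed in the libraries and 3 were abundant enough to test in upper layer cells (*Pou2f1*, *Pou2f2* and *Pou6f1*), with 0 called by limma and levels of 0.224 to 0.375 in WT. Of 7 genes reported as targets of this POU class, 5 were tested in upper layer cells and 1 passed, beside 2.96% of all genes (0.974% lower in KO). *Dab1*, the adaptor of Reelin signalling that guides migrating neurons, fell from 2.98 to 3.72 in the WT libraries to 1.54 and 1.55 in KO (-0.76, SE 0.14, adjusted p = 7.94e-04). It was among the leading genes of the upper layer class in WT. Its mean in WT and KO was 1.46 and 1.32 in deep layer neurons, 1.22 and 1.16 in newborn neurons, and 0.714 and 0.909 in intermediate progenitors. It did not pass in any of these. *Cdk5r1*, the activator of Cdk5, was 4.28 against 3.53 on average (-0.22, SE 0.14, adjusted p = 0.443). The list's median difference was 0.09, beside -0.03 over all genes tested.

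Of 16 partner and projection neuron factors, all tested, 4 fell and 1 rose in upper layer cells (0.974% of all genes fell and 1.98% rose), with a median of -0.13. *Bcl11a* fell from a mean of 7.07 to 4.08 (-0.67, SE 0.14, adjusted p = 0.00568). *Zbtb18* fell from 5.97 to 3.52 (-0.61, SE 0.15, adjusted p = 0.0151), *Neurod6* from 15.0 to 8.52 (-0.74, SE 0.18, adjusted p = 0.0177), and *Zeb2* from 4.40 to 2.74 (-0.53, SE 0.15, adjusted p = 0.0405). *Nfia*, a nuclear factor I gene, rose from 1.72 to 7.34 (1.64, SE 0.16, adjusted p = 2.08e-07), and it also rose in each of the 7 other classes tested and over all kept cells. *Sox11*, a SOX factor of postmitotic neurons, was 29.9 in WT and 32.3 in KO (0.12, SE 0.18, adjusted p = 0.792). *Pantr1*, the noncoding RNA beside *Pou3f3*, was 10.8 in WT and 7.45 in KO (-0.46, SE 0.16, adjusted p = 0.121), and the other 2 names on that list were not found in the files. These lists were tested in the same cells as the members, so the flatter class profiles of KO4 and KO5 stand beside these values too.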

How the data were processed

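The authors aligned reads to mm10 (GRCm38, Ensembl 84 annotation) with Cell Ranger (version 2.1.0 in the submitters' notes) and filtered cells with Seurat 2.3.4. WT4, WT5, KO4 and KO5 were deposited as raw UMI counts. WT1, WT2, WT3, KO1 and KO2 were deposited as the natural log of 1 plus UMIs per 10000, from which whole UMI counts were recovered for 100% of values. Cells with 1000 to 5000 genes, 1800 to 10000 UMIs, under 6% mitochondrial and at most 1% haemoglobin UMIs were kept. Classes needed at least 2 markers, a score of 5 bits and a lead of 2 bits, limits set after the data had been seen; no doublet caller was run, and cells matching 2 lists were dropped. Genes at 0.1 UMIs per 10000 or more in at least 2 libraries were tested with limma 3.58.1 (R 4.3.3, trend and robust fit) on log2(value + 1), with Benjamini-Hochberg adjustment and a threshold of 0.05. edgeR 4.0.16 and DESeq2 1.42.0 were run on summed UMI counts. The tests were first tried on simulated data. The family was defined by gene symbols, but it and the gene lists were picked for study with earlier results of these data known. Named genes were list members that were called, then those with the largest change, and for each member the 5 genes most like it over classes in WT. The depth of the deposited libraries was 348105 to 29767293 UMIs. Some genes, and a result that needs them, are not reported here.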

Additional observations from a re-analysis of the deposited data

Results flagged for a closer look

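Over all kept cells, *Pou3f2* in KO1 (4.43 UMIs per 10000 in 331 cells) stood apart from the other 3 libraries labelled KO, which ran from 2.31 to 2.44. Its *Tcf4* level (16.7) was above that of every other library. Chance alone would mark about 1 in 20 groups by this rule, and 8 were examined.

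The KO effect differed between endothelial and upper layer cells for 3 members, by the interaction test of limma. The difference, endothelial minus upper layer, was 1.84 for *Pou3f2*, 1.27 for *Pou3f3* and 0.77 for *Pou3f1* (log2, 5 libraries). *Actb* UMIs and haemoglobin-rich cells moved with genotype in these libraries, and their part was not tested.

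In the library labelled WT5, which the main comparisons did not use, the 81 endothelial cells held more *Pou3f1*, *Pou3f2* and *Pou3f3* than those of WT2, WT3 and WT4. The levels there were 1.32 for *Pou3f2*, 1.41 for *Pou3f3*, 0.781 for *Pou3f1* and 0.0981 for *Pou3f4*, the last from 2 UMIs and below the limit of 3 counts (0.151), so it was not read as higher.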

How the results depend on the processing

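The count of members called between genotypes was 0 in the upper layer class under each alternative reported here. 1 further alternative for that class gave a count of 1 and is not described. It went from 0 to 1 in newborn neurons when gated on all UMIs or with haemoglobin-rich cells kept (0 to 1 on leaving out 1 library), to 1 in interneurons with edgeR under both scalings, DESeq2 or gating on all UMIs (0 to 1), and to 1 in striatal cells in cells high in *Actb*, a setting chosen after seeing the data. In intermediate progenitors leaving out 1 library gave 0 to 1. It went from 1 to 0 in radial glia or astrocytes (0 to 2 on leaving out 1 library) and in cycling progenitors (0 to 1) with DESeq2, below 4000 UMIs, in cells high in *Actb* and with all libraries as labelled, in the former also on thinned cells and in the latter also when gated on all UMIs. The 18 contrasts of the upper layer class called in WT became 11 on thinned cells, 34 with edgeR and 8 to 17 on leaving out 1 library. With edgeR more of all genes passed too. The share higher in the upper layer class was 15.7% against cycling progenitors (3.91% with limma) and 3.08% against striatal cells (0.529% with limma). The difference of genotype effects had 0 members called against deep layer and newborn neurons and 3 with endothelial cells in their place (1 to 3 on leaving out 1 library). The causes were not tested.

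In upper layer cells *Pou3f1* turned to 0.000146 in cells high in *Actb* and ran from -0.266 to 0.0702 on leaving out 1 library (0.0459 without WT4, 0.0702 without KO5). *Pou3f3* turned to 0.0254 in cells high in *Actb* and to 0.0319 with all libraries as labelled. *Pou3f4* turned to -0.00776 with haemoglobin-rich cells kept and ran from -0.0198 (without KO5) to 0.0759 on leaving out 1 library. The share of *Pou3f1* turned to 0.364 percentage points with all libraries, and ran from -3.9 to 3.01 on leaving out 1 library (3.01 without WT4, 2.58 without KO5). That of *Pou3f3* ran from -7.05 to 0.407, and that of *Pou3f4* turned to -1.65 without thinning.

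Replicate numbers are shared by the labels of both genotypes, but nothing says that they mark a litter or day. The deviations of same-numbered libraries had r = -0.0646, 0.306, 0.308 and 0.561 for numbers 1, 2, 4 and 5. Among the KO libraries the same number was the best match for WT2 and WT4. It was not for WT1, which was closest to KO2 (0.195), or WT5, where KO4 (0.564) and KO5 nearly tied. As these values were mixed, the numbers were not taken as pairs. With the replicate block, which in upper layer cells leaves numbers 4 and 5, *Pou3f2* was 0.0563, *Pou3f3* 0.139 and *Pou3f2* in newborn neurons 0.047, the same without a replicate block in those libraries, and 0 members were called in radial glia or astrocytes and in cycling progenitors in both fits.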
